A study of Arabidopsis thaliana with 32 samples.

Results

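Of the 33602 genes in the count tables, 146 carry an identifier that begins with ATMG, the prefix of genes in the Arabidopsis thaliana mitochondrial genome, and all 146 were followed here. In the 32 libraries 78 of them held at least 1 read and 68 held none. Plant mitochondria keep a genome of their own, passed on through the mother, that encodes ribosomal and transfer RNAs and a small part of the subunits of the respiratory chain, ATP synthase, the cytochrome c maturation machinery and the mitochondrial ribosome. Its transcription and the trimming, splicing, editing and decay of its RNAs depend on proteins encoded in the nucleus. In plant mitochondria a poly-A tail generally marks an RNA for decay, so libraries made from poly-A RNA take up only a part of these transcripts, and the values below are read counts in such libraries and not amounts of mature mitochondrial RNA.

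The libraries came from endosperm, the tissue that nourishes the embryo and holds 2 genomes of the mother for 1 of the father, and from the embryo, each cut from seeds by laser capture microdissection. Crosses name the mother first. The standard set holds Col x Col, C24 x C24, Col x C24 and C24 x Col seeds, with 2 libraries for each cross and tissue. The CNS set uses cytonuclear swap lines, in which Col(C24) has the cytoplasm of Col and the nucleus of C24, and C24(Col) has the cytoplasm of C24 and the nucleus of Col. It holds selfed Col(C24), selfed C24(Col) and Col(C24)xCol seeds with 2 libraries for each cross and tissue, and ColxCol(C24) and C24(Col)xCol(C24) seeds with 1 each. In all 18 libraries had Col and 14 had C24 cytoplasm. No further transgene, treatment or seed age is given in the labels, nor whether libraries of a cross came from separate plants, so a p-value here covers only the spread among these libraries, which may be technical.

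Total gene counts ran from 8.64 to 54.3 M per library (M is 1000000). A level is given as CPM, counts per 1000000 gene counts scaled with edgeR's TMM factors. Summed levels of 6 endosperm markers were 354 to 753 CPM in endosperm and 20.9 to 67.4 CPM in embryo. Most of that sum came from SUC5, with a mean of 359 CPM in endosperm and 37.2 CPM in embryo. AGL62 and MEA had means of only 0.322 and 1.13 CPM in endosperm, though all 6 had a higher mean there than in embryo. Summed levels of 7 embryo markers were 315 to 462 CPM in embryo and 22.4 to 47.0 CPM in endosperm. Summed levels of 4 seed coat markers were 70.1 to 331 CPM in endosperm and 0.961 to 24.5 CPM in embryo. The allele tables of the 16 hybrid libraries hold 0 rows for the mitochondrial genes. Reads of the other allele than the reference were counted at their 14 to 19 chloroplast genes. They made up 99.4% to 99.9% in the 6 libraries whose mother was taken to have C24 cytoplasm. They made up 0% to 0.604% in the 10 whose mother was taken to have Col cytoplasm. For CNS lines the labels do not say which part of the name is the cytoplasm, and selfed CNS libraries had no such check. The mitochondrial identifiers are paired with no gene name in the files or in the RefSeq annotation used here, so members are called by identifier. Names are given only where a RefSeq note on a chromosome 2 gene pairs it with a member.

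Most mitochondria-encoded reads belonged to a pair of members, ATMG00020 and ATMG01390. The 32 libraries held 4519493 mitochondria-encoded reads in all. ATMG00020 took 49.4% to 66.0% of those in a library, with a mean of 60.3% over the libraries. ATMG01390 took 27.6% to 36.7%, with a mean of 32.3%. The pair together made up 77.0% to 96.0% of these reads, and the ratio of ATMG00020 to ATMG01390 reads stayed between 1.42 and 2.23 (median 1.85).

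The 8 members next in rank followed far behind. Mean shares were 1.24% for ATMG00090, 0.708% for ATMG01360 and 0.650% for ATMG00080. They were 0.649% for ATMG00660 and 0.643% for ATMG00690. ATMG00070 and ATMG00060 had 0.330% each and ATMG00040 had 0.278%. These are shares of reads, not levels per length, since lengths of the members were not used, and they say nothing about which RNA was more abundant per molecule. The 10 leading members together held 97.4% of the reads on average.

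Below them the reads thinned out quickly. 14 members had at least 10000 reads over all libraries, and 27 were read in every library, while 51 were read in 1 to 31 libraries. Of the 78 members with any read, 17 had under 100.

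**Figure D1:**
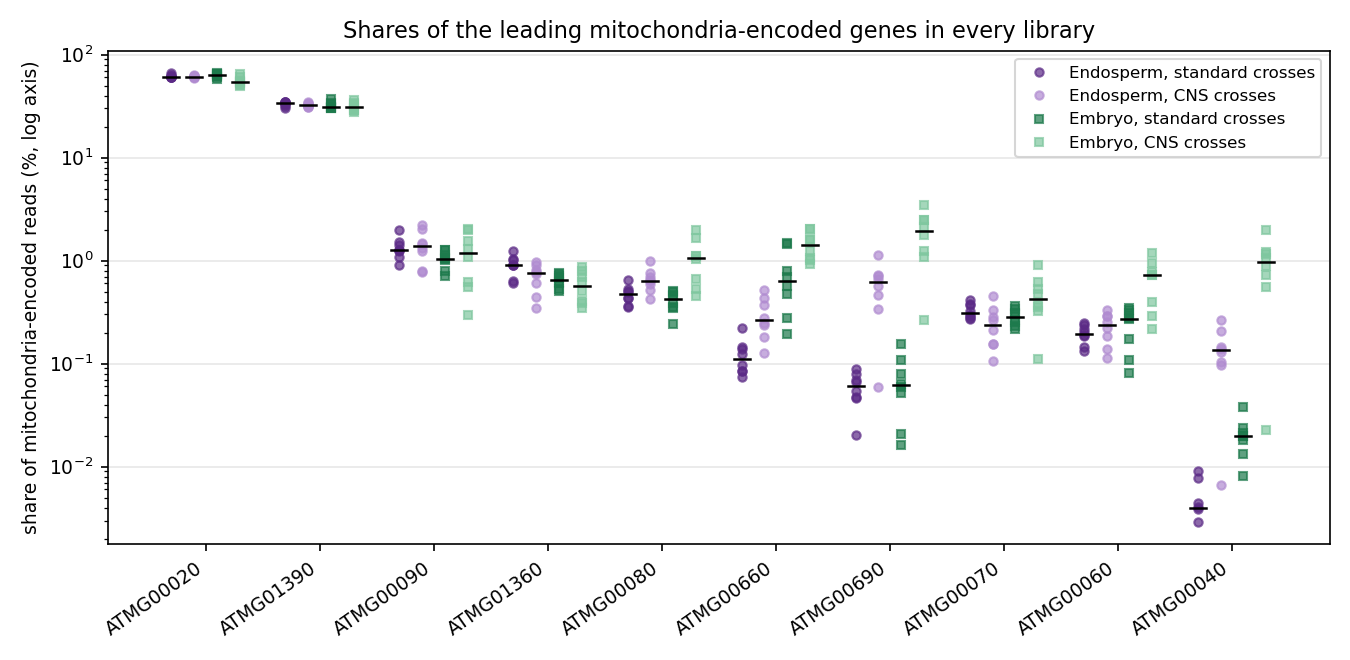
Share of mitochondria-encoded reads (%, log axis) held by each of the 10 leading members in each library, with a black line at the median of the 8 libraries of a tissue and set; 2 standard endosperm libraries with no ATMG00040 read cannot be drawn on a log axis. ATMG00020 and ATMG01390 hold most reads in every library, and ATMG00690 and ATMG00040 stand higher in the CNS libraries than in the standard ones except for 1 endosperm library for either member and 1 embryo library for ATMG00040.

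In the standard crosses most members that could be tested were higher in endosperm than in embryo. Mitochondria-encoded reads made up 0.181% to 1.13% of gene counts in standard endosperm. In standard embryo they made up 0.0608% to 0.504%. ATMG00020 stood at 1103 CPM (lowest), 2537 CPM (median) and 7477 CPM (highest) in the 8 endosperm libraries. It stood at 358, 810.4 and 3244 CPM in the 8 embryo libraries. The ranges of ATMG00020 in the tissues overlapped, and its highest embryo library was replicate 1 of Col x Col.

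ATMG00020 was 1.67 ± 0.27 log2 units higher in endosperm (edgeR quasi-likelihood test, Benjamini-Hochberg adjusted p = 6.5e-05). Unless marked SD, ± is the standard error, worked back from the log2 difference and the F statistic of the test. ATMG01390 had 602, 1414 and 3745 CPM in endosperm and 228, 409 and 1475 CPM in embryo, a difference of 1.78 ± 0.24. Again the middle of the endosperm range lay near the top of the embryo range.

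The members with smaller shares given next were named for the smallest p among those called higher in endosperm. They do not stand for all 35 members tested, whose median log2 difference was 1.64. ATMG00090 had 29.2, 61.0 and 114 CPM in endosperm and 6.40, 15.6 and 38.8 CPM in embryo, a log2 difference of 2.02 ± 0.25. ATMG01360 had 16.5, 40.8 and 106 CPM against 3.87, 9.18 and 25 CPM, a log2 difference of 2.16 ± 0.25. For both, the lowest endosperm library lay under the highest embryo library, and the medians lay well apart. ATMG00080 had 9.21, 19.3 and 45.0 CPM against 2.86, 5.52 and 11.9 CPM, a log2 difference of 1.93 ± 0.21. ATMG00070 had 6.23, 15.8 and 38.7 CPM against 1.63, 3.96 and 15.2 CPM, a log2 difference of 1.87 ± 0.29. ATMG01120 had 0.888, 4.98 and 10.5 CPM against 0.785, 1.16 and 3.54 CPM, a log2 difference of 1.75 ± 0.26. The ranges of these members overlapped as well, and each passed the test.

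A single member passed the test in the other direction. ATMG00660 had 1.96, 6.15 and 11.2 CPM in endosperm and 2.53, 10.6 and 13.7 CPM in embryo, a log2 difference of -0.74 ± 0.27 (edgeR quasi-likelihood test, Benjamini-Hochberg adjusted p = 0.0216). Its ranges overlapped over most of their length, and its call was lost in 3 of 16 fits that left out 1 library, with an adjusted p of up to 0.0909 in edgeR's quasi-likelihood test.

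In the standard set 24 of the 35 members that passed the filter on low counts differed between the tissues (edgeR quasi-likelihood test, Benjamini-Hochberg adjusted p under 0.05), 23 higher in endosperm and 1 lower, where 78.8% of all 20235 genes tested differed in either direction. The count of members is thus not above the background; what differed is the direction, since 39.1% of all genes were higher in endosperm. The median log2 difference of the 35 members was 1.64, and that of all genes 0.00. Fewer cells of a type and less mitochondrial RNA per cell cannot be told apart in such libraries. Seed coat markers moved with the tissue, at 111 to 331 CPM in standard endosperm and 3.51 to 24.5 CPM in standard embryo, and their part in the result was not tested. When library size was set to the mitochondria-encoded reads alone, which asks for change relative to their own total, 4 members differed, all lower in endosperm.

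In the CNS crosses fewer of the members tested differed between the tissues, 3 higher and 5 lower in endosperm. ATMG00020 had 1658, 4121 and 16097 CPM in CNS endosperm and 385, 2443 and 5601 CPM in CNS embryo. The ranges overlapped widely, and the log2 difference of 1.02 missed the threshold (edgeR quasi-likelihood test, Benjamini-Hochberg adjusted p = 0.128). ATMG00090 had 56.2, 86.2 and 245 CPM against 10.005, 35.5 and 91.5 CPM and was 1.25 ± 0.28 log2 units higher in endosperm. ATMG00030 had 0.520, 1.63 and 17.4 CPM against 0.268, 0.976 and 1.51 CPM and was 1.35 ± 0.35 higher, although its ranges overlapped widely. ATMG01360 had 22.3, 51.1 and 117 CPM against 4.45, 23.7 and 41.2 CPM and was 1.13 ± 0.41 higher.

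Lower in CNS endosperm were ATMG00120, ATMG00630, ATMG01280, ATMG00810 and ATMG01410, all of them low members. A low member read mostly in 1 tissue can pass the filter on low counts through that tissue alone. The direction of these calls is therefore not independent of the filter. ATMG00630 had 0, 1.55 and 8.04 CPM in endosperm and 0.122, 8.16 and 22.2 CPM in embryo, a log2 difference of -2.02 ± 0.63. ATMG00120 had 0, 0.301 and 0.71 CPM against 0.0243, 0.940 and 3.85 CPM, a log2 difference of -2.50 ± 0.76. Their ranges overlapped at the low end. ATMG01280, paired by its note with a cytochrome c oxidase subunit II-like transmembrane domain, had 23 reads in 2 of 8 endosperm libraries and 252 reads in 7 of 8 embryo libraries. ATMG00810 had 12 reads in 2 endosperm and 102 reads in 7 embryo libraries, and ATMG01410 had 228 reads in 6 and 777 reads in 7. With so many libraries at 0, the fitted folds of these members depend on the prior count and are not given. The call of ATMG00810 was lost in 13 of 16 fits that left out 1 library, that of ATMG01410 in 10 and that of ATMG01280 in 3.

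In the CNS set 8 of 65 members tested differed between the tissues, 3 higher and 5 lower in endosperm, where 65.2% of all genes tested did so (edgeR quasi-likelihood test, Benjamini-Hochberg adjusted p under 0.05). The members' median log2 difference was -0.57, and that of all genes 0.04. The count rested on single libraries: it was 20 without embryo replicate 1 of selfed Col(C24) and 4 without embryo replicate 2 of Col(C24)xCol, and DESeq2 called 18. The filter let in 65 members here and 35 in the standard set. Counts and medians of the sets thus cover different members and are not directly comparable. The difference between the sets was tested on its own. It was called for 0 of 63 members and 0% of all 22254 genes by edgeR's quasi-likelihood test, with 13 members at an unadjusted p under 0.05, and for 2 members by DESeq2. The median log2 change of the tissue difference from the standard to the CNS set was -1.39 over the members and 0.05 over all genes.

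The make-up of the mitochondria-encoded reads set most CNS libraries apart from the standard ones. What follows was chosen after the values were seen and was not tested. Set and any difference in how the libraries were prepared or grown cannot be told apart. ATMG00690 had 16 to 61 reads in the standard endosperm libraries and 6 to 47 in the standard embryo libraries. In CNS endosperm it had 63 reads in replicate 1 of selfed Col(C24) and 1133 to 2838 in the other libraries. In CNS embryo it had 70 reads in replicate 1 of selfed Col(C24) and 1906 to 7479 in the others. So replicate 1 of selfed Col(C24) stood near the standard libraries in both tissues, and every other CNS library stood far above them.

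ATMG00040 showed the same order of libraries. It had 0 to 9 reads in standard endosperm and 2 to 11 in standard embryo. In CNS endosperm it had 7 reads in replicate 1 of selfed Col(C24) and 200 to 863 in the rest, and in CNS embryo 6 reads there and 1113 to 3471 in the rest. In CPM, ATMG00690 had a median of 2.16 in standard and 48.0 in CNS endosperm, and of 0.834 in standard and 95 in CNS embryo. ATMG00040 had a median of 0.0895 in standard and 10.8 in CNS endosperm, and of 0.261 in standard and 50.4 in CNS embryo. ATMG00660 also had a higher median with CNS, at 24.6 against 6.15 CPM in endosperm and 63.3 against 10.6 CPM in embryo, but its ranges in the sets overlapped in both tissues.

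The leading pair held a smaller share in CNS embryo. It had 94.1% to 95.9% of the mitochondria-encoded reads in standard embryo. In CNS embryo it had 93.0% and 93.2% in selfed Col(C24) and 77.0% to 87.3% in the other 6 libraries. More members were found in the same libraries: at an equal 11060 mitochondria-encoded reads, the number in the library with the fewest, 51.4 to 56.1 members would be seen in those 6, 39.7 and 44.0 in selfed Col(C24), and 32 to 39.3 in standard embryo. Endosperm showed less of this, with 31.1 to 45.6 members in CNS and 31.3 to 35.6 in standard libraries. Seed coat markers were at 111 to 331 CPM (median 248) in standard and 70.1 to 195 CPM (median 94.2) in CNS endosperm, and their part in these values was not tested.

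Endosperm with a Col nucleus in the mother held more mitochondria-encoded reads than endosperm with a C24 nucleus. In standard endosperm these reads made up 0.998% and 0.718% of gene counts for selfed Col and 1.13% and 0.509% for Col x C24. For selfed C24 they made up 0.267% and 0.359%, and for the reverse hybrid 0.181% and 0.261%. The groups did not overlap in the standard set, where nucleus and cytoplasm of the mother go together. In the CNS set a Col nucleus sits in C24 cytoplasm in C24(Col): its selfed endosperm had 0.737% and 1.89%, and C24(Col)xCol(C24) had 2.51%. ColxCol(C24), with Col nucleus and Col cytoplasm in the mother, had 0.530%. With a C24 nucleus in Col cytoplasm, selfed Col(C24) had 0.300% and 0.815% and Col(C24)xCol had 0.422% and 0.569%. In each CNS endosperm cross with 2 libraries, replicate 2 had the higher percent. The C24(Col)xCol(C24) library was replicate 2 and the ColxCol(C24) library replicate 1, so cross and replicate number cannot be told apart there. Over both sets the 8 endosperm libraries with a Col nucleus in the mother ran from 0.509% to 2.51% (median 0.868%) and the 8 with a C24 nucleus from 0.181% to 0.815% (median 0.330%), and the ranges overlapped through replicate 2 of selfed Col(C24) and a library of Col(C24)xCol.

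**Figure D2:**
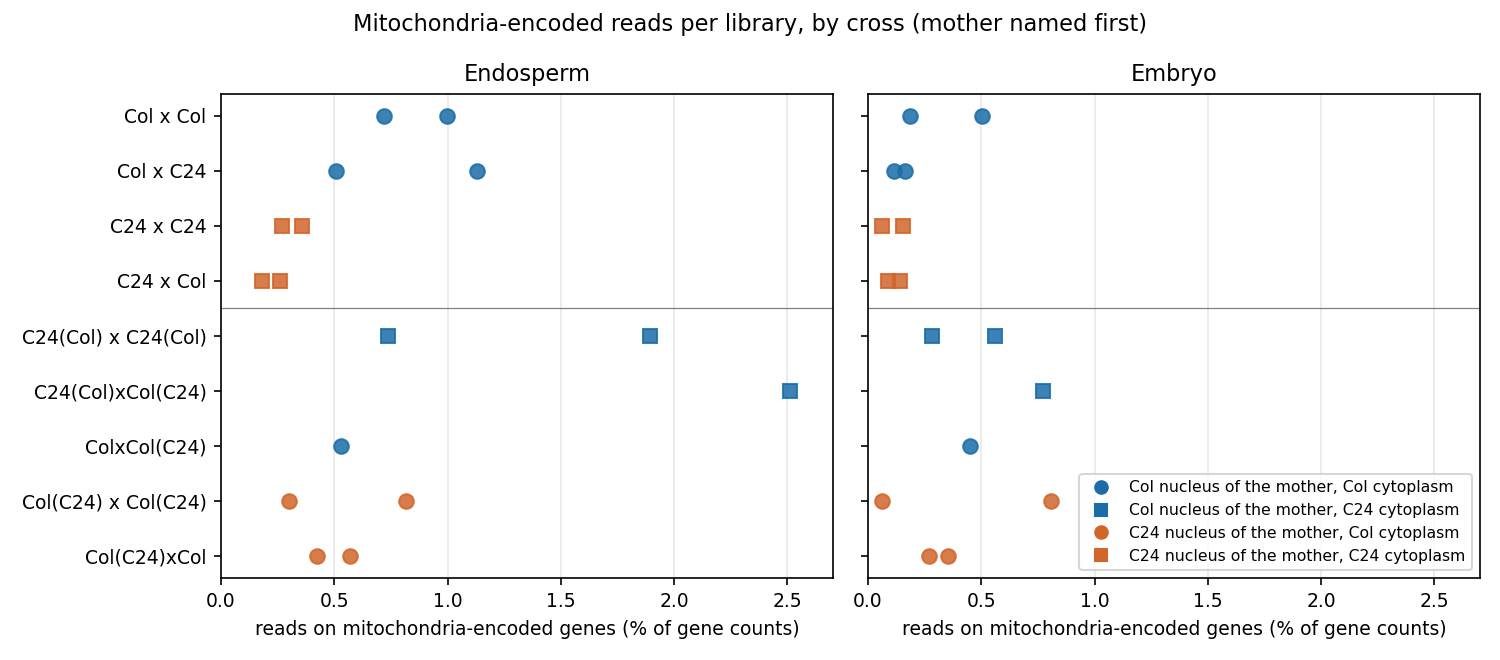
Reads on mitochondria-encoded genes as a percent of all gene counts (horizontal axis) in each of the 32 libraries, by cross, with the standard crosses above the line and the CNS crosses below it; colour gives the mother's nucleus and shape the mother's cytoplasm. In endosperm the 8 libraries with a Col nucleus in the mother lie at 0.509% to 2.51% and those with a C24 nucleus at 0.181% to 0.815%.

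ATMG00020 and ATMG01390 make up most mitochondria-encoded reads, so they could hardly show another order than the sum. The further members given below were among those called by nucleus in these same libraries with the smallest p, and are no separate support. ATMG00020 had 3112, 5816 and 16097 CPM (lowest, median and highest of 8) in endosperm with a Col nucleus in the mother and 1103, 1809 and 4616 CPM with a C24 nucleus. Within the standard set its ranges did not overlap (3112 to 7477 CPM against 1103 to 1961 CPM), and within the CNS set they did (3150 to 16097 CPM against 1658 to 4616 CPM). In a fit with set, cytoplasm and the Col share of the nuclear genome as terms, the level of ATMG00020 was 2.00 ± 0.53 log2 units higher with a Col than with a C24 nucleus (edgeR quasi-likelihood test, Benjamini-Hochberg adjusted p = 0.0163). ATMG01390 had 1593, 2928 and 8952 CPM against 602, 1046 and 2482 CPM, a log2 difference of 1.86 ± 0.52 (edgeR quasi-likelihood test, Benjamini-Hochberg adjusted p = 0.0224). The ranges of ATMG01390 overlapped, like those of its larger companion.

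The smallest adjusted p belonged to ATMG00030. It had 2.12, 5.47 and 17.4 CPM with a Col nucleus in the mother and 0.520, 1.14 and 3.93 CPM with a C24 nucleus, and was 3.38 ± 0.45 log2 units higher with a Col nucleus (edgeR quasi-likelihood test, Benjamini-Hochberg adjusted p = 0.000191). Within each set its groups did not overlap: 4.75 to 16.1 CPM against 1.13 to 3.93 CPM in the standard set, and 2.12 to 17.4 CPM against 0.520 to 1.14 CPM in the CNS set. ATMG00070 had 17.1, 26.4 and 40.7 CPM against 6.23, 7.70 and 17.9 CPM and was 2.05 ± 0.38 higher. ATMG00090 had 72.3, 105 and 245 CPM against 29.2, 53.0 and 86.7 CPM and was 1.64 ± 0.31 higher. ATMG00080 had 22.2, 43.1 and 118 CPM against 9.21, 17.7 and 39.3 CPM and was 1.76 ± 0.37 higher. In these members the lowest library with a Col nucleus lay below the highest with a C24 nucleus, by little in ATMG00070 and by more in ATMG00090 and ATMG00080.

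ATMG00640 had 12.0, 20.8 and 30.8 CPM against 3.47, 6.44 and 15.7 CPM and was 1.79 ± 0.41 higher. ATMG00130 was read in 6 of 8 endosperm libraries with a Col nucleus in the mother (153 reads) and in 3 of 8 with a C24 nucleus (17 reads), too few for its fitted fold to be read as a size. When the fit was made relative to the mitochondria-encoded total, 3 members passed the threshold, ATMG00030 among them, and ATMG00080, ATMG00090 and ATMG00640 had a difference of the opposite sign that missed it.

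In endosperm 20 of 56 members tested were higher with a Col nucleus and none was lower, where 18.0% of all 21210 genes differed in either direction (edgeR quasi-likelihood test, Benjamini-Hochberg adjusted p under 0.05); DESeq2 called 25. The members' median log2 difference was 1.86, and that of all genes -0.05. The count was 13 without replicate 1 of endosperm C24 x C24 and 12 without replicate 1 of endosperm Col(C24) x Col(C24). The chloroplast-encoded genes moved too, with 50 of 82 tested higher and 0 lower. Reads without a feature made up 9.02% to 17.7% of counts in endosperm with a Col nucleus in the mother and 5.68% to 8.47% with a C24 nucleus, without overlap, and seed coat markers stood at 71.4 to 294 CPM (median 191) and 70.1 to 331 CPM (median 111). The part of either in the result was not tested.

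Fewer members differed by nucleus in embryo. ATMG00030 had 0.764, 1.25 and 6.95 CPM with a Col nucleus in the mother and 0.120, 0.634 and 1.41 CPM with a C24 nucleus, a log2 difference of 2.42 ± 0.65. ATMG00650 had 1.16, 10.11 and 29.3 CPM against 0.224, 1.17 and 17.4 CPM, a difference of 2.29 ± 0.59. ATMG00516 had 0.775, 1.48 and 5.15 CPM against 0.112, 0.737 and 1.5 CPM, a difference of 2.18 ± 0.69. The ranges of all of these overlapped. ATMG00570 had 0.0510, 0.234 and 0.539 CPM against 0, 0.0657 and 0.196 CPM, near the limit of what these libraries can show. The call of ATMG00516 was lost in 9 of 16 fits that left out 1 library. These 4 of 61 members tested were called, all higher with a Col nucleus, where 14.3% of all 19942 genes were called (edgeR quasi-likelihood test, Benjamini-Hochberg adjusted p under 0.05); the share of members lay below that background. The count was 1 without replicate 1 of embryo Col x Col, 2 without its replicate 2 and 2 without replicate 1 of embryo Col(C24) x Col(C24). The members' median was 0.96 and that of all genes 0.01, and 49 of 61 fitted differences were positive.

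The nuclear share in these fits joins both parents. An alternative chosen after seeing the data gave the nuclei of mother and father a term each. In endosperm 22 of 56 members were higher with a Col nucleus in the mother, where 16.4% of all genes were called, and 0 members with a Col nucleus in the father, where 9.67% were called (edgeR quasi-likelihood test, Benjamini-Hochberg adjusted p under 0.05). At an unadjusted p under 0.05 the father's term had 3 members. The median log2 difference was 1.51 for the mother's nucleus and 0.13 for the father's. ATMG00030 stood 2.42 ± 0.37 log2 units higher with the mother's Col nucleus, ATMG00020 1.73 ± 0.34 and ATMG01390 1.64 ± 0.33. In embryo 1 member, ATMG00650, was higher with the mother's Col nucleus (1.39 ± 0.40; 7.57% of all genes called), and 0 with the father's (3.55% called, 3 members at an unadjusted p under 0.05), with medians of 0.83 and 0.23. The difference between the mother's and the father's term was itself not tested. Cytoplasm, in the same fits, had 1 member lower with Col in either tissue, where 0.0189% of genes were called in endosperm and 0.0201% in embryo. Within C24 cytoplasm the mother's nucleus is C24 in every standard and Col in every CNS library, and within Col cytoplasm only ColxCol(C24) breaks the reverse arrangement, so these fits rest on the terms being additive.

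**Figure D3:**
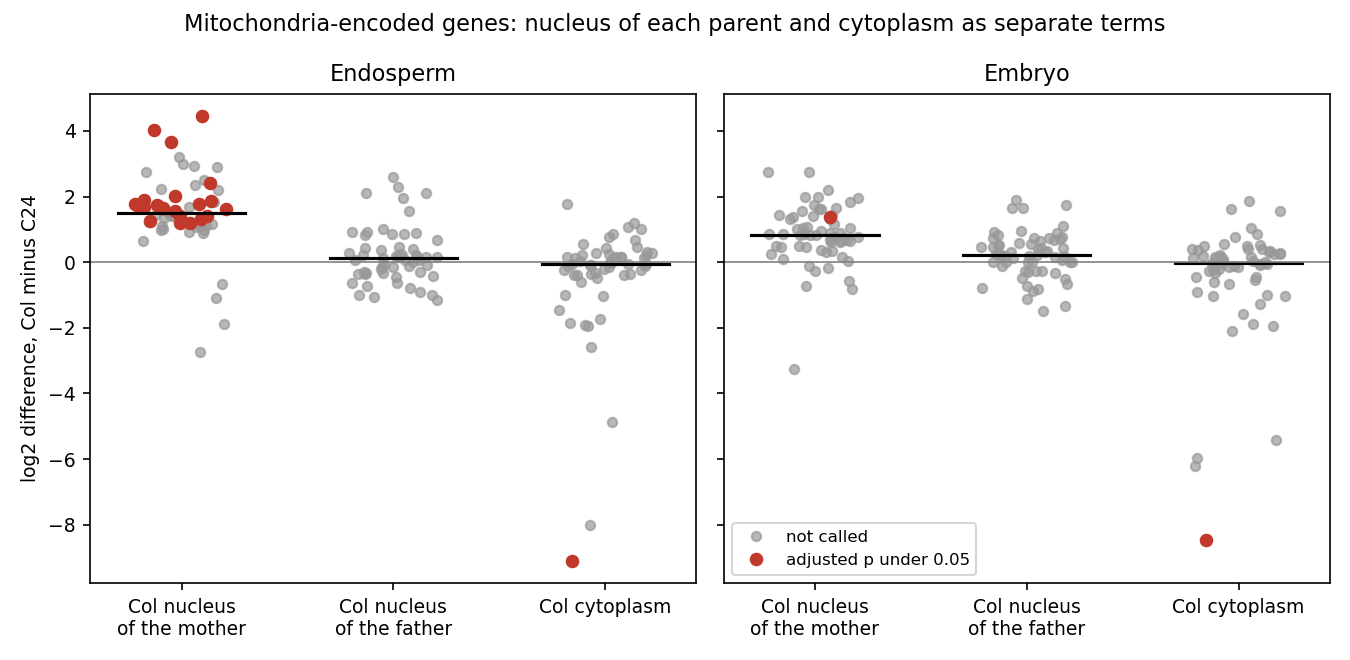
Log2 difference, Col minus C24, of each member tested (points) for the mother's nucleus, the father's nucleus and the cytoplasm as separate terms of 1 fit per tissue; black lines are medians and red points have a Benjamini-Hochberg adjusted p under 0.05 in edgeR's quasi-likelihood test. In endosperm the median lies at 1.51 for the mother's nucleus and 0.13 for the father's, and ATMG00730 is the red point under the cytoplasm terms.

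By the mother's cytoplasm, the fit with set, nucleus and cytoplasm as terms called a single member, ATMG00730, in either tissue. ATMG00910 and ATMG00370 were not called, and like ATMG00730 had nearly all their reads from C24 cytoplasm. ATMG00730, paired by its RefSeq note with cytochrome c oxidase subunit 3, a core subunit of the respiratory chain's terminal oxidase, was read with C24 cytoplasm and hardly at all with Col cytoplasm. ATMG00910 (paired with an unknown protein) and ATMG00370 (paired with a Ycf1 protein) were read with C24 cytoplasm alone. Each is paired by such a note with a gene inside a large copy of mitochondrial DNA on chromosome 2, called its counterpart here. The counterparts are near-identical to the Col-0 mitochondrial sequence. The members' own sequences were not at hand, so no member was aligned to its counterpart. Stretches of the counterparts are shown because reads of either kind could be assigned to one place or the other. The chromosome 2 genes lie on the minus strand, in a single exon each. Positions and sequences are from RefSeq's TAIR10.1, whose mitochondrial sequence is that of Col-0.

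The chromosome 2 gene AT2G07687 (chr2:3312093-3312212, minus strand), the counterpart of ATMG00730, reads as follows; over all its 998 bases it has 0 mismatches to the Col-0 mitochondrial sequence, whose same stretch is chrMT:330215-330334, minus strand.
AT2G07687: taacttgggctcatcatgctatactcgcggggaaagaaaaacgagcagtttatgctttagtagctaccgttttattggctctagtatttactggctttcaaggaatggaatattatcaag

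AT2G07739 (chr2:3495895-3496014, minus strand), the counterpart of ATMG00370, has 0 mismatches over 888 bases, and its stretch matches chrMT:42999-43118, minus strand.
AT2G07739: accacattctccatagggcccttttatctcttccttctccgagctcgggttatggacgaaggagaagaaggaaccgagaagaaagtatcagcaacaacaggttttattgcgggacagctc

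AT2G07773 (chr2:3240961-3241080, minus strand), the counterpart of ATMG00910, differs from the mitochondrial sequence (chrMT:307681-307800, plus strand) by 1 base in 1770, in capitals, which is C61G counted from the 5′ end of the stretch with the nuclear base first.
AT2G07773: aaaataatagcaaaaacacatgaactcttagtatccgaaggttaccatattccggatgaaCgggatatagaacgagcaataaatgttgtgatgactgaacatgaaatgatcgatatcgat
mitochondrial: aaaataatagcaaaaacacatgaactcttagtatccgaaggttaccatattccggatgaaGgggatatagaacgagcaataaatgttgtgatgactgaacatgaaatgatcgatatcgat

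With C24 cytoplasm, ATMG00730 had 11 and 27 reads in endosperm of selfed C24 and 7 and 58 in that of C24 x Col. It had 141 and 379 reads in selfed C24(Col) endosperm and 831 in C24(Col)xCol(C24) endosperm. In embryo it had 2 and 0 reads in selfed C24, 6 and 12 in C24 x Col, 148 and 547 in selfed C24(Col) and 888 in C24(Col)xCol(C24). Counts were highest where C24 cytoplasm was joined to a Col nucleus in the CNS lines, and 1 of the 14 libraries had none. Within C24 cytoplasm, CNS set and Col nucleus of the mother cannot be told apart. With Col cytoplasm it had 4 reads in 3 of 18 libraries.

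The size of the difference was not the same in the sets. In standard endosperm the reads of ATMG00730 per gene count were 31.1-fold higher with C24 cytoplasm (103 reads against 2; exact 95% interval 8.39 to 260.2, which covers counting error only). In standard embryo they were at least 5.57-fold higher, with 20 reads against 0 and a floor of 3 reads over the Col group. In the CNS set they were at least 943-fold higher in endosperm (1351 reads against 0) and 1223-fold higher in embryo (1583 against 2; interval 338 to 10106). So most reads of ATMG00730 came from the 3 CNS libraries with C24 cytoplasm in each tissue. In the fit with set and nucleus it was lower with Col cytoplasm in endosperm (edgeR quasi-likelihood test, Benjamini-Hochberg adjusted p = 0.000657) and in embryo (Benjamini-Hochberg adjusted p = 6.1e-05, same test). With 2 reads over all Col-cytoplasm libraries of either tissue, its fitted fold depends on the prior count and is not given. The call held without any 1 library, with adjusted p of up to 0.00795 in endosperm and 0.00638 in embryo. It was lost in both tissues in a fit of means per cross whose contrast used the selfed lines only (adjusted p = 0.0899 and 1.00 in edgeR's quasi-likelihood test).

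As a share of mitochondria-encoded reads, which does not depend on how much mitochondrial RNA a library holds, ATMG00730 was 0.000227% ± 0.000682 (SD, n = 9) with Col and 0.0652% ± 0.0359 (SD, n = 7) with C24 cytoplasm in endosperm. In embryo the shares were 0.000495% ± 0.00126 and 0.100% ± 0.117. ATMG00730 was named for its call by cytoplasm in these same libraries, so its shares are a description and no p is given. Shares of the 23 named members were compared in both tissues by exact two-sided permutation tests, 46 in all. Apart from ATMG00730 a single one had an unadjusted p under 0.05, that of ATMG01120 in endosperm, with 0.110% ± 0.0259 against 0.0833% ± 0.0190 (exact permutation p = 0.0369, and 0.2 among selfed lines). Apart from ATMG00730, log2 differences of shares ran from -1.27 to 0.55.

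In endosperm 1 of 56 members tested and in embryo 1 of 61 differed by cytoplasm, in each case ATMG00730, where 0.0141% and 0.0150% of all genes did so (edgeR quasi-likelihood test, Benjamini-Hochberg adjusted p under 0.05). At an unadjusted p under 0.05 there were 6 and 5 members. The other genes called were the chloroplast genes ATCG00430 and ATCG00440 in endosperm and the chromosome 2 loci AT2G07747 and AT2G07811 in embryo. A difference of the cytoplasm term between tissues was called by edgeR's quasi-likelihood test for 0 of 63 members and 0% of all genes, with 2 members at an unadjusted p under 0.05, and for 0 by DESeq2.

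ATMG00910, named after its values were seen, had 2, 12, 4, 27, 30, 97 and 74 reads in the 7 endosperm libraries with C24 cytoplasm and 1, 0, 0, 2, 41, 67 and 41 in the 7 embryo libraries. It had 0 reads in all 18 libraries with Col cytoplasm. Against a floor of 3 reads over the Col group, it was at least 9.06-fold higher with C24 cytoplasm in standard endosperm, at least 140-fold in CNS endosperm and at least 76.7-fold in CNS embryo, and standard embryo had too few reads for a bound. The call of ATMG00910 depended on the fit. By edgeR's quasi-likelihood test it was not called (Benjamini-Hochberg adjusted p = 0.108 in endosperm and 0.275 in embryo), and over the 8 other settings the adjusted p ran from 9.1e-09 to 1.00 in endosperm, called by 3 of them, and from 0.0266 to 1.00 in embryo, called by DESeq2 alone. ATMG00370, also named afterwards, had 4, 14 and 30 reads in the CNS endosperm libraries with C24 cytoplasm and 9, 34 and 82 in the CNS embryo libraries, and 0 in all 8 standard libraries with C24 cytoplasm and all 18 with Col cytoplasm. It was at least 22.4-fold and 53.2-fold higher with C24 cytoplasm by the same floor. For ATMG00370 the standard set alone shows no difference at this depth.

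Of 61 members with at least 100 reads, these 3 had nearly all their reads from C24 cytoplasm and 0 had nearly all from Col cytoplasm. For the other 58 the ratio of mean shares, Col to C24, ran from 0.235 to 2.23 with a median of 1.08, and 53 lay between 0.67 and 1.5. The lowest ratios after the 3 belonged to ATMG01275, paired by its note with NADH dehydrogenase 1A, with 38 Col and 135 C24 reads, and to ATMG00520, with mean shares of 0.0204% and 0.0852%. ATMG00520 was read in every library, and edgeR's quasi-likelihood test did not call it in either tissue (Benjamini-Hochberg adjusted p = 1.00 in endosperm and 0.384 in embryo), while of 8 other settings DESeq2 called it in embryo (adjusted p = 0.0215). ATMG00020 held 60.7% of mitochondria-encoded reads on average with Col and 59.8% with C24 cytoplasm, a difference smaller than the spread between libraries.

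**Figure D4:**
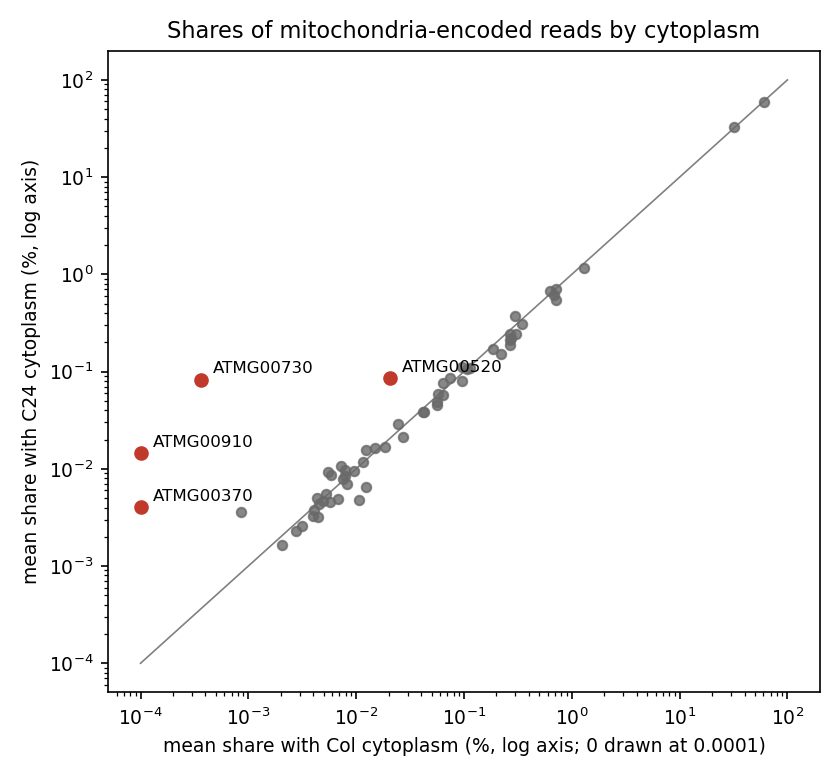
Mean share of mitochondria-encoded reads (%, log axes) with Col cytoplasm (horizontal, 18 libraries) and with C24 cytoplasm (vertical, 14 libraries) for the 61 members with at least 100 reads, with the line of equal shares; a share of 0 is drawn at 0.0001. ATMG00730, ATMG00910 and ATMG00370 lie far above the line, ATMG00520 lies above it, and 53 members lie at a ratio of 0.67 to 1.5.

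A few loci of the chromosome 2 copy, chosen after their values were seen, had nearly all their reads from Col cytoplasm. AT2G07739, the counterpart of ATMG00370, had 155 reads with Col and 1 read with C24 cytoplasm, but 153 of the 155 were in CNS libraries. Its standard libraries, with 2 reads against 1, show no difference at this depth, and the fit did not call it in embryo (edgeR quasi-likelihood test, Benjamini-Hochberg adjusted p = 0.735); in endosperm it did not pass the filter. AT2G07747, a transcribed pseudogene, had 9 to 198 reads in every library with Col cytoplasm and 0 in all 14 with C24 cytoplasm, at least 104-fold higher with Col in endosperm and 90.0-fold in embryo. AT2G07811, also a transcribed pseudogene, had 5875 reads with Col and 12 with C24 cytoplasm. In the standard set it was 14.1-fold higher with Col in endosperm (exact 95% interval 7.29 to 30.4) and 40.7-fold higher in embryo (10.8 to 343), and in the CNS set at least 210-fold and 950-fold higher. In selfed Col(C24) replicate 1, AT2G07811 had 8 and 22 reads, at the level of the standard libraries, as ATMG00690 and ATMG00040 had. These loci sit in the nuclear genome. Reads on AT2G07747 were present in the libraries with Col cytoplasm whether the mother's nucleus was Col or C24, and absent in those with C24 cytoplasm whether it was Col or C24.

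AT2G07747 (chr2:3245006-3245125, minus strand) has 0 mismatches to the Col-0 mitochondrial sequence over 961 bases (its stretch is chrMT:230980-231099, plus strand), so its reads and mitochondrial reads from that place have the same letters.
AT2G07747: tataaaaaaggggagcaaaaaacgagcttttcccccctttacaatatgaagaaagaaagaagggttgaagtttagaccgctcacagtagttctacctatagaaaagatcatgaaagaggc

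AT2G07811 (chr2:3337426-3337498, minus strand) has 2 mismatches over 620 bases to chrMT:93847-94466, plus strand, and the one inside the stretch, in capitals, is A14G with the nuclear base first, counted from the 5′ end of the stretch.
AT2G07811: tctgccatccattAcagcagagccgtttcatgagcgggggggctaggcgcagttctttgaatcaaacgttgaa
mitochondrial: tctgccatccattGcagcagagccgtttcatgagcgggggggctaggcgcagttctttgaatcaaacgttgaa

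Other loci of the copy did not follow this pattern. AT2G07687, the counterpart of ATMG00730, had 182 reads with Col and 324 with C24 cytoplasm, which is 2.36-fold higher per gene count with C24 (exact 95% interval 1.97 to 2.85, counting error only) and not called by edgeR's quasi-likelihood test in endosperm or embryo (Benjamini-Hochberg adjusted p = 1.00 and 0.910). AT2G07773, the counterpart of ATMG00910, had 0 reads. AT2G07698 and AT2G07715 were not called by cytoplasm in either tissue either. The mitochondrial sequence of the TAIR10 annotation was determined from C24, as background, while the sequences printed here are from a reference with the Col-0 one. Which of the mitochondrial and chromosome 2 sequences a read was given to, and the part of the reference in these patterns, was not tested.

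**Figure D5:**
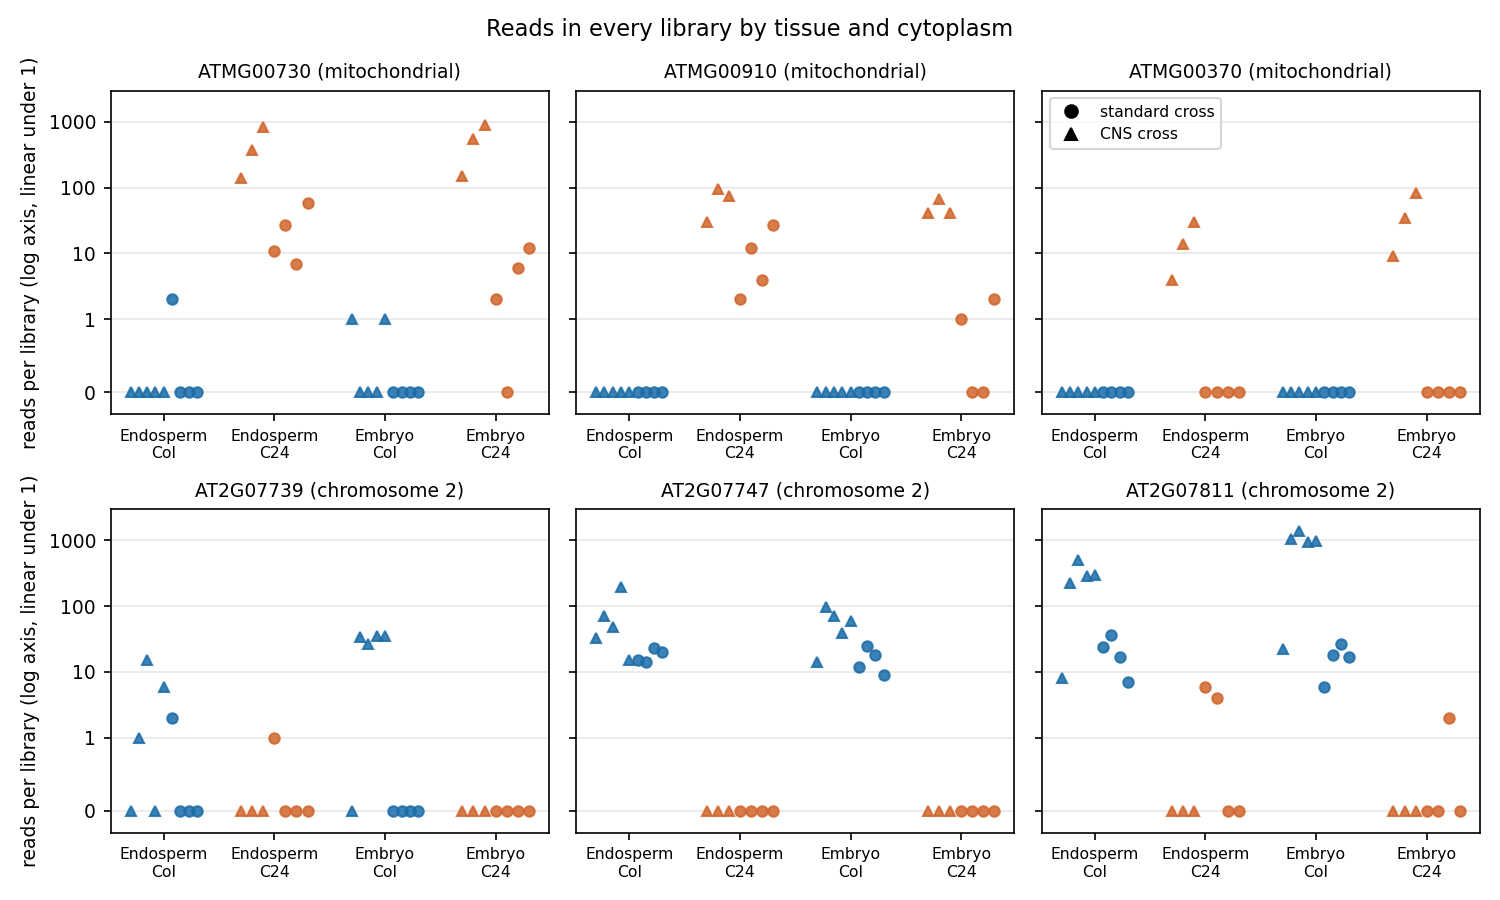
Reads per library (log axis, linear under 1) of 3 members and 3 chromosome 2 loci, by tissue and cytoplasm of the mother; circles are standard and triangles CNS crosses, with Col cytoplasm in blue and C24 in orange. ATMG00910 and ATMG00370 have 0 reads in all 18 libraries with Col cytoplasm, and AT2G07747 has 0 in all 14 with C24 cytoplasm.

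How much of the mitochondrial genome can be told from the nuclear one bears on the values here, though not to the same degree for all genes. Of all 100-base windows of the Col-0 mitochondrial sequence, 65.5% also occur in a nuclear chromosome, mostly chromosome 2, and 68.2% of 50-base windows do. Of 37 annotated Col-0 mitochondrial gene symbols with a 100-base window, 10 had no window in a nuclear chromosome. In 14 every window also occurred there. Most members are not paired with these symbols, so the degree for a single member is mostly not known. RefSeq notes pair 53 members with 55 loci on chromosome 2. All but AT2G18323, paired with ATMG00450 and starting at position 7960352, lie between positions 3239693 and 3503476. Over the part that aligned, the loci are 99.03% to 100% identical to the mitochondrial sequence, 28 of them at 100%. The aligned part was 59.3% of AT2G07777, 89.6% of AT2G07798, 89.8% of AT2G07749 and 100% of every other locus. The 53 noted members held 0.364% of the mitochondria-encoded reads, with 26 of them read at all and 3 at 1000 reads or more. The 93 members without a note held 99.6%, with 52 read and 30 at 1000 reads or more. ATMG00020 and ATMG01390 are among the latter.

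Single pairs of a member and its noted locus differed in which of them held reads. Whether reads of the same RNA were divided between them was not tested. ATMG01190, paired with ATP synthase subunit 1, had 2 reads in all libraries, and its counterpart AT2G07698 had 5861. ATMG00220, paired with apocytochrome b, a core subunit of complex III, had 0 reads, and AT2G07727 had 590. ATMG01090, paired by its note with ATP synthase 9, had 4753 reads in all 32 libraries, and AT2G07777 had 9. AT2G07777 aligned over 59.3% of its length, to a mitochondrial stretch with no annotated gene. The annotated atp9 gene lay in the stretch of AT2G07671, paired with ATMG01080, and both of these had 0 reads. So the 4753 reads were not shown to be reads of atp9. ATMG00560, paired with an OB-fold nucleic acid-binding protein, had 3543, and AT2G07715 had 2667. Low counts of such a member do not show that its RNA was scarce. The counterparts themselves did not all go one way. AT2G07698 was 1.93 ± 0.23 log2 units higher in standard endosperm than embryo (edgeR quasi-likelihood test, Benjamini-Hochberg adjusted p = 2.3e-06) and 2.48 ± 0.57 higher with a Col nucleus in endosperm (Benjamini-Hochberg adjusted p = 0.00725, same test). AT2G07715 was lower in standard endosperm, at -1.11 ± 0.40 (Benjamini-Hochberg adjusted p = 0.0194, same test), and was not called by nucleus.

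Nuclear genes for mitochondrial RNA synthesis and processing were mostly lower in endosperm. Of 13 nuclear genes of mitochondrial RNA synthesis, processing and genome upkeep, 11 were lower and 1 higher in standard endosperm than in embryo (median log2 difference -0.95), and 7 were lower and 1 higher in the CNS set (median -0.78), by edgeR's quasi-likelihood test at a Benjamini-Hochberg adjusted p under 0.05. Of all genes tested 78.8% were called in the standard set (39.6% lower) and 65.2% in the CNS set (32.5% lower), so in the CNS set the share of the list called lay near the background. MSH1, which guards the organelle genomes against recombination between repeats, differed by -2.45 ± 0.13 and -2.42 ± 0.19 in the standard and CNS sets. The mitochondrial polynucleotide phosphorylase (mtPNPase), which degrades mitochondrial RNA, differed by -2.71 ± 0.15 and -2.45 ± 0.19. RPOTm, a mitochondrial RNA polymerase, differed by -1.45 ± 0.12 and -1.21 ± 0.14. So these 3 were lower in endosperm, where most members that differed in the standard set were higher. RPF3, a pentatricopeptide repeat protein that shapes the ends of mitochondrial RNAs, was the 1 gene of this list that was higher in endosperm in both sets.

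Of 24 nuclear genes for respiratory chain and ATP synthase subunits and the alternative oxidase, 5 were higher and 9 lower in standard endosperm (median -0.12), and 3 were higher and 10 lower in the CNS set (median -0.27; edgeR quasi-likelihood test, Benjamini-Hochberg adjusted p under 0.05). In both sets the share of this list called lay below the share of all genes called, 78.8% and 65.2%. AOX1A, an alternative oxidase that passes electrons straight to oxygen and is no subunit of the ATP-forming complexes, was 3.40 ± 0.58 and 3.25 ± 0.72 log2 units higher in endosperm. COX5b (AT3G15640), a subunit of cytochrome c oxidase, differed by -0.67 ± 0.09 and -0.89 ± 0.14. One of the cytochrome c1 genes (AT5G40810) differed by -0.52 ± 0.09 and -0.57 ± 0.11.

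By cytoplasm 0 of these 13 and 0 of these 24 genes were called in either tissue by edgeR's quasi-likelihood test, and 0 had an unadjusted p under 0.05. By nucleus, 1 of 13 and 2 of 24 were higher with a Col nucleus in endosperm, below the 18.0% of all genes called there, and the genes named next are single cases and no result about the lists. They were RPF3 (2.59 ± 0.49), a cytochrome c1 gene (AT3G27240; 0.46 ± 0.13) and the Rieske subunit of complex III (0.57 ± 0.18). In embryo RPF3 (1.32 ± 0.30) and RPF2 (1.79 ± 0.44), a further RNA-processing repeat protein, were higher with a Col nucleus, and SDH1-1, a subunit of complex II, was lower at -0.51 ± 0.09, where 14.3% of all genes were called. RPF2 and RPF3 belong to a family of near-identical genes whose reads the counting could split, so their values are uncertain.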

How the data were processed

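Per the labels' protocols, endosperm and embryo were cut by laser capture microdissection, RNA was isolated (RNAqueous Micro Kit) and poly-A RNA was made into libraries (NEB Ultra II). For every one of the 32 libraries the authors deposited raw counts of reads per gene, not normalised. The submitters' processing notes name STAR, HTSeq, Trimmomatic and edgeR and the build TAIR10, with no version or role. The sources used here do not say whether counts are stranded or how reads with several places in the genome were counted. Reads of a member, of an antisense neighbour or of a copy on chromosome 2 can therefore not be told apart. The deposited allele counts of the 16 hybrid libraries served only to check the mother's cytoplasm. Reads without a feature made up 2.28% to 17.7% of counts and stayed out of library sizes, like the other summary lines.

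Counts of all genes were fitted in R 4.3.3 with edgeR 4.0.16 (quasi-likelihood test, TMM scaling, filterByExpr with a minimum count of 10), with Benjamini-Hochberg adjustment over all genes tested and a threshold of 0.05. Members were called from the whole table. Tissue differences came from means per cross and tissue within a set, in which crosses with 1 library stood alone. Nucleus and cytoplasm came from a fit per tissue with set, cytoplasm and the Col share of the nuclear genome, in which the mother counts 2 and the father 1 in endosperm and both count alike in embryo. Shares were compared by exact permutation tests in scipy 1.17.1 on log2 of the share with 0.5 reads added. The steps were tested on simulated data. DESeq2 1.42.0, other scalings, no filter, a replicate block and each library left out in turn were the alternatives. Windows and loci were compared with the RefSeq sequence TAIR10.1 by blastn 2.17.0; it may not be the sequence the reads were aligned to. Depth, 8.64 to 54.3 M gene counts per library, limits low members most, and intervals and floors of 3 reads cover counting error only.

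The members, the lists of nuclear genes and the comparisons were chosen with earlier results of these data known. Named are the 10 members with the largest mean share and, per comparison and direction, up to 6 called members with the smallest adjusted p; rules that needed allele reads or annotated functions of the members could not be applied. ATMG00370, ATMG00910, ATMG00520 and ATMG01275, and members named for their chromosome 2 pairs, were added after their values were seen. Replicate numbers were not taken as pairs, since the labels do not say that they mark a batch. Over genes, the replicate 2 minus 1 differences of crosses correlated at -0.071 to 0.193 in standard and 0.152 to 0.236 in CNS endosperm. They correlated at 0.097 to 0.319 in standard and 0.038 to 0.508 in CNS embryo. Same-numbered libraries thus shared some of their deviation in most groups, and a replicate block was fitted only as an alternative. These correlations were taken within a tissue. They do not show whether endosperm and embryo libraries of the same cross and number shared seeds or preparation. No fit paired such libraries, and the tissue tests took them as independent.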

Additional observations from a re-analysis of the deposited data

Results flagged for a closer look

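A library is given here when it lies far from the rest of its group of 4 to 10 by the gap to its nearest neighbour; chance does this in about 1 in 20 groups, and it happened in 3 of 50. In standard embryo, replicate 1 of Col x Col had 0.5043% of its gene counts on mitochondria-encoded genes, where the next library had 0.184% and the median of the others was 0.141%. In CNS endosperm, ATMG00020 and ATMG01390 together held 90.08% of the mitochondria-encoded reads in replicate 1 of Col(C24)xCol, where the next library had 93.0% and the median of the others was 94.6%. In endosperm with C24 cytoplasm, ATMG00730 held 0.1349% of these reads in C24(Col)xCol(C24), where the next library had 0.0754% and the median of the others was 0.0538%.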

How the results depend on the processing

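Counts of members called, with those given in the report first, changed as follows. With library size set to the mitochondria-encoded reads, the count went from 24 to 4 for tissue in the standard set, from 20 to 3 for nucleus in endosperm, from 4 to 0 for nucleus in embryo and from 1 to 2 for cytoplasm in endosperm; this scaling moved the median log2 difference of all genes to -1.76 for tissue in the standard set, -1.13 in the CNS set and -1.87 and -1.66 for nucleus in endosperm and embryo, and turned the nucleus difference in endosperm of ATMG00080 (-0.16), ATMG00090 (-0.37) and ATMG00640 (-0.053) and the standard tissue difference of ATMG01120 (-0.0038). DESeq2 gave 2 for cytoplasm in endosperm, 3 in embryo, 7 for nucleus in embryo, 18 for tissue in the CNS set and 2 for the difference between sets. A fit of means per cross with a contrast of the selfed lines gave 0 for cytoplasm in either tissue. Selfed libraries alone gave a log2 share difference of ATMG00730 in embryo of -5.06. No filter gave 2 for cytoplasm in endosperm, and the fit of all 32 libraries gave 19 for tissue in the CNS set. The mother's nucleus alone gave 1 in embryo. The cause of these changes was not tested. Leaving out each library in turn gave 18 to 26 and 4 to 20 for tissue in the standard and CNS sets, 12 to 20 and 1 to 6 for nucleus in endosperm and embryo, and 1 to 1 for cytoplasm in each tissue; it was not run for the tests between sets and between tissues. The replicate block changed few counts: 23 and 10 for tissue, 20 and 6 for nucleus, 1 and 1 for cytoplasm, 0 and 0 for the tests between sets and tissues. Library totals as scaling moved the median of all genes for nucleus in endosperm from -0.05 to -0.24 and for the difference between sets from 0.05 to 0.16, and DESeq2 moved that for tissue in the standard set from 0.00 to 0.16. Of the single members' values under alternatives, 694 kept direction and side of the threshold, 74 lost and 5 gained the call, which were those of ATMG00910 (3 in endosperm, 1 in embryo) and ATMG00520 (1 in embryo). Shares without ribosomal RNA genes and allele shares of the members were not run.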
